A study of Homo sapiens with 6 samples.

Results

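The pyruvate dehydrogenase genes and the genes of the enzymes that switch the complex off and on were measured in cells of the human line MDA-MB-231, which comes from a triple-negative breast cancer, after vitamin C treatment. They are 10 genes taken by name, namely the kinases PDK1, PDK2, PDK3 and PDK4, the phosphatases PDP1 and PDP2, and the enzyme subunits PDHA1, PDHB, DLAT and DLD. All 10 passed the filter on low counts, among 15261 genes tested and 60675 gene identifiers in the files. One group was 3 wells treated with 100 μM sodium ascorbate (vitamin C) for 3 days and the other was 3 wells grown without added vitamin C (control). RNA was depleted of ribosomal RNA, and reads were counted per gene. PDK1 was among the genes that the study chose for qRT-PCR by their fold change in these same libraries, so its change here is not independent evidence.

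The pyruvate dehydrogenase complex sits in the mitochondrial matrix and turns pyruvate, the end product of glycolysis, into acetyl-CoA for the citric acid cycle. The E1 enzyme, built from PDHA1 and PDHB chains, removes carbon dioxide from pyruvate. The E2 enzyme, encoded by DLAT, passes the acetyl group to coenzyme A, and the E3 enzyme, encoded by DLD, restores the lipoyl arm of E2. The PDK kinases phosphorylate the E1 alpha chain and stop the reaction, and the PDP phosphatases reverse this. PDK1 and PDK3 are known as targets of the hypoxia-inducible factor HIF-1. By way of PDK1, this factor holds back the turning of pyruvate into acetyl-CoA at low oxygen. PDK4 is known for its induction in fasting, through PPAR and FOXO factors. PDK1 is not the signalling kinase PDPK1, which is often called by the same name.

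Libraries held 13434130 to 19553914 gene counts in vitamin C wells, against 17664345 to 22373591 in control wells. Levels are CPM, the counts per 1000000 after TMM normalization. The difference between groups is the log2 of vitamin C over control, with a standard error (SE). Genes were tested by edgeR's quasi-likelihood method, p-values were adjusted over all genes tested by the Benjamini-Hochberg method, and an adjusted p under 0.05 counted as a call. VIM, CD44 and CAV1, known markers of this line, averaged 1256, 1143 and 632 CPM in vitamin C cells and 1276, 962 and 750 CPM in control cells, while SPARC, another marker on that list, was near 0 with at most 10 counts. The estrogen receptor gene ESR1 had no count in any library and the progesterone receptor gene PGR had at most 4. CDH1, the epithelial cadherin and the other gene listed as absent from this line, had 9 to 130 counts. It averaged 3.89 ± 2.58 CPM in vitamin C cells and 1.57 ± 0.925 CPM in control cells (SD, n = 3 each), with overlapping groups and an edgeR adjusted p of 0.113. Of 5 markers of other cell types, PTPRC, CD3E, MYH11 and ALB had at most 2 counts in a library. PECAM1, an endothelial gene, was higher with 2.04 ± 0.141 CPM in vitamin C cells and 0.958 ± 0.339 CPM in control cells (SD, n = 3 each; edgeR adjusted p = 0.0439, DESeq2 adjusted p = 0.0675). The 5 markers summed to 2.03 to 2.30 CPM in vitamin C wells and 0.569 to 1.39 CPM in control wells, and their part in the results was not tested. Per the methods, a group had 3 wells in each experiment. Whether the wells sequenced were all of 1 experiment is not stated, so p-values reflect only how far these wells spread, and that spread may be technical.

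Transcripts of PDK1 and PDK3 fell after vitamin C treatment, and the other 8 genes did not pass the threshold. PDK1 fell to 0.503 of its control level (95% interval 0.442 to 0.572) and PDK3 to 0.750 of it (0.637 to 0.883). Thus 2 of 10 genes were called lower, where 3.48% of all genes tested were, and none was called higher, where 3.60% of all genes tested were. At an unadjusted p under 0.05, the same 2 genes were lower and 2 were higher (PDK2 and PDK4), where 13.1% and 14.3% of all genes tested were. DESeq2 called PDK1 and PDK3 lower and none of the 10 higher, where it called 6.36% of genes lower and 4.35% higher. The median log2 fold change of the 10 genes was 0.04, against 0.02 over all genes tested. The vitamin C wells lay below every control well for 3 genes (PDK1, PDK3 and DLD) and above every control well for 3 (PDK2, PDK4 and DLAT), where 16.6% and 15.7% of all genes tested did so. In a bulk culture, fewer cells that express a gene and less RNA per cell cannot be told apart.

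**Figure D1:**
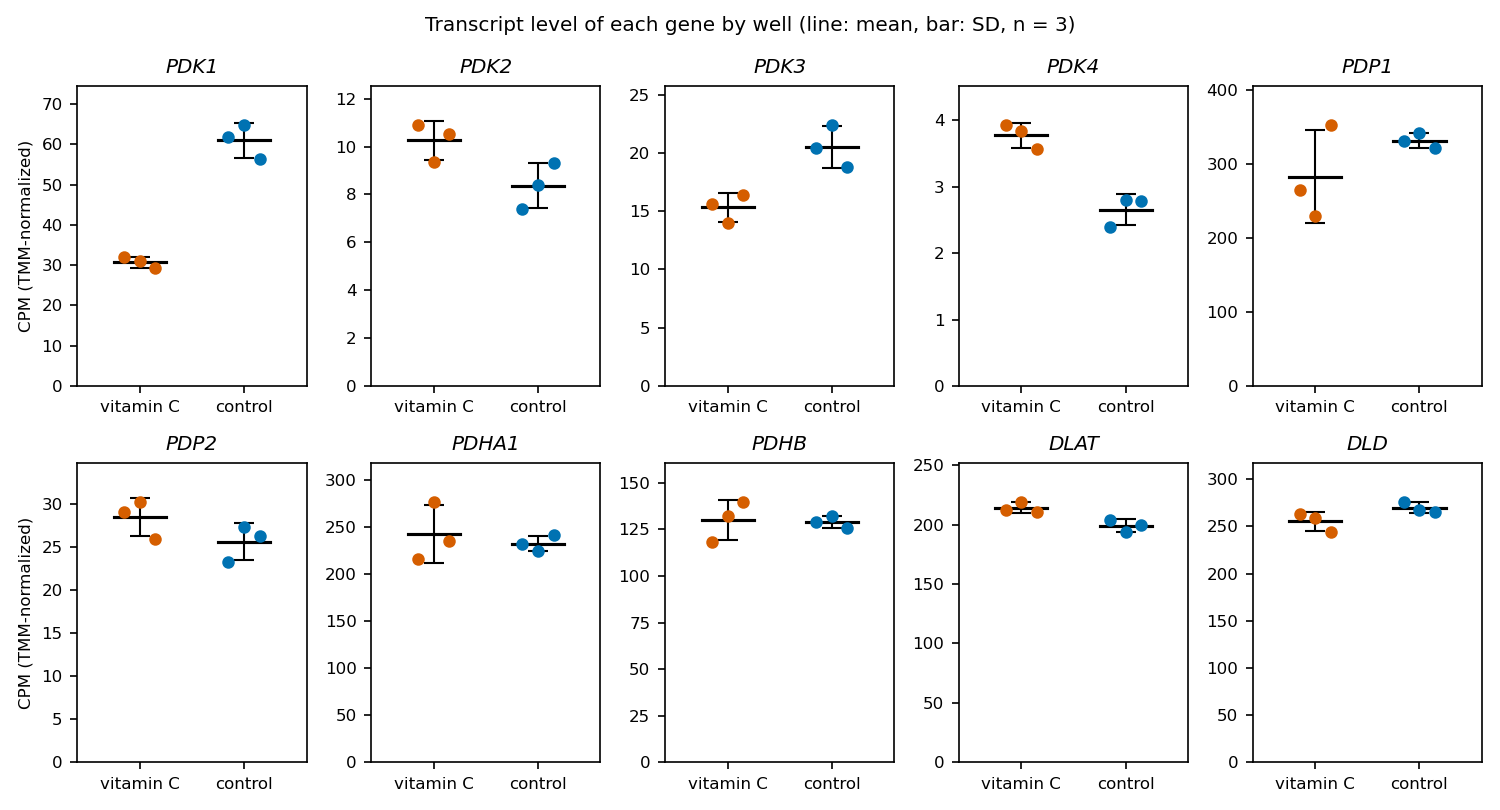
TMM-normalized CPM of the 10 genes in each of the 6 wells, with vitamin C wells left and control wells right in each panel. Each point is a well, each line a mean and each bar an SD (n = 3 per group), and each axis starts at 0. For PDK1 the vitamin C wells lie between 29.2 and 31.9 CPM and the control wells between 56.3 and 64.8 CPM, whereas for PDHA1, PDHB, PDP1 and PDP2 the groups overlap.

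PDK1, the kinase best known from hypoxia, lies on chromosome 2 (172555373 to 172608669, GRCh38, plus strand). It had 31.9, 30.9 and 29.2 CPM in vitamin C wells 1, 2 and 3, against 61.8, 64.8 and 56.3 CPM in control wells 1, 2 and 3. The gap between the highest vitamin C well and the lowest control well was wider than the spread within either group. The log2 fold change was -0.99 (SE 0.09, edgeR adjusted p = 0.000289), the fifth smallest p of all genes tested. These values rest on 427 to 582 counts in vitamin C libraries and 1086 to 1459 counts in control libraries. PDK1 kept its call under all 15 alternatives tried, with log2 fold changes from -1.05 to -0.95. The antisense RNA PDK1-AS1 shares 445 of the 14845 bases of PDK1 exons. Whether strand was used in counting is not stated in the methods or labels. If it was not used, reads in those bases cannot be told apart between the pair. PDK1-AS1 averaged 14.5 ± 4.50 CPM in vitamin C cells and 11.4 ± 0.952 CPM in control cells (SD, n = 3 each), with a log2 fold change of 0.35 that did not pass (edgeR adjusted p = 0.242).

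PDK3, the isoenzyme known for its high activity and weak inhibition by pyruvate, lies on chromosome X (24465244 to 24550466, plus strand). It had 15.6, 14.0 and 16.4 CPM in vitamin C wells 1, 2 and 3, against 20.4, 22.4 and 18.7 CPM in control wells 1, 2 and 3. All vitamin C wells lay below all control wells, with a gap no wider than the spread within either group. The log2 fold change was -0.42 (SE 0.11, edgeR adjusted p = 0.0436). This call was close to the threshold, and it was lost when any of 4 libraries was left out (adjusted p of 0.128 and 0.153 for control 1 and control 2, 0.0994 and 0.103 for vitamin C 1 and vitamin C 2), with upper-quartile factors (0.0552) and at equal depth (0.0867). It was lost in 8 of the 15 alternatives in all, with the highest adjusted p (0.158) when control 1 and vitamin C 2 were left out together. The log2 fold change stayed between -0.48 and -0.35 under all 15 alternatives.

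PDK4, the isoenzyme of the fasting response, was the least abundant of the 10 genes by CPM. It lies on chromosome 7 (95583499 to 95596516, minus strand). It had 3.93, 3.84 and 3.56 CPM in vitamin C wells 1, 2 and 3, against 2.39, 2.80 and 2.79 CPM in control wells 1, 2 and 3. Every vitamin C well was above every control well. With an SE of 0.17 and an edgeR adjusted p of 0.0941, the log2 fold change of 0.50 did not pass, with a 95% interval of 0.12 to 0.87. Only 42 to 71 reads per library were behind these values. PDK4 did not pass under any of the 15 alternatives, with adjusted p-values of 0.0603 to 0.331.

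PDK2, the isoenzyme with the broadest tissue range, lies on chromosome 17 (50094737 to 50112152, plus strand). It had 10.9, 9.34 and 10.5 CPM in vitamin C wells 1, 2 and 3, against 7.40, 8.39 and 9.30 CPM in control wells 1, 2 and 3. The lowest vitamin C well and the highest control well were almost level. Its log2 fold change of 0.29 had a 95% interval of 0.01 to 0.58 and an edgeR adjusted p of 0.173, and it did not pass under any of the 15 alternatives.

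**Figure D2:**
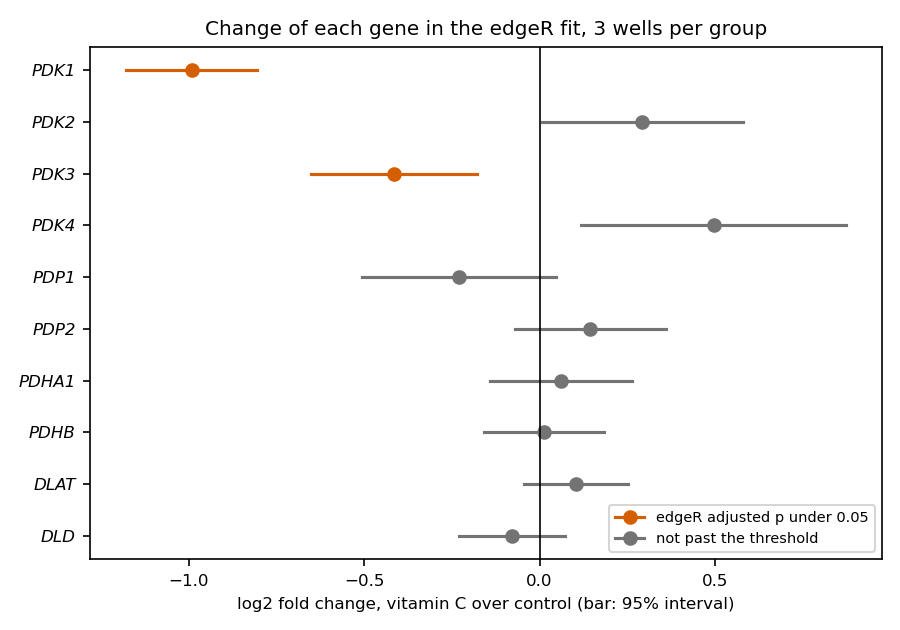
Log2 fold changes (vitamin C over control) of the 10 genes from the edgeR fit across all genes, with 95% intervals, 3 wells per group. Orange marks an adjusted p under 0.05. PDK1 at -0.99 and PDK3 at -0.42 are orange, and the other 8 genes lie between -0.23 and 0.50.

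Among the kinases, PDK1 and PDK3 fell and PDK2 and PDK4 were not called. The sequences upstream of their start sites are shown so that the 4 genes can be compared. The 250 bases before RefSeq start sites on GRCh38.p14 were searched for ACGTG on both strands. ACGTG is a form of the core of the site that hypoxia-inducible factors bind, and other forms were not searched or marked. On the reverse strand ACGTG reads CACGT in the printed sequence, and the palindrome CACGTG matches on both. Of 35116 RefSeq windows of this length, 18.5% held the motif. Among the 10 genes, 9 had a window, with 13 windows in all, and 6 of these held it. The PDK1 window shown is chr2:172555840-172556089 and ends next to the start site 172556090, with matches that begin 17 and 8 bases before it. The other PDK1 window, before 172555373, held none. The PDK3 window is chrX:24465036-24465285, with 1 match that begins 61 bases before the start site. The PDK2 window is chr17:50095101-50095350, the only 1 of 3 PDK2 windows with a match, a CACGTG that begins 129 bases before the start site. The PDK4 window is chr7:95596517-95596766, read on the minus strand, and held none. Capitals mark the matches. A match is a description of the letters in a window, and which start sites these cells used was not measured.
PDK1: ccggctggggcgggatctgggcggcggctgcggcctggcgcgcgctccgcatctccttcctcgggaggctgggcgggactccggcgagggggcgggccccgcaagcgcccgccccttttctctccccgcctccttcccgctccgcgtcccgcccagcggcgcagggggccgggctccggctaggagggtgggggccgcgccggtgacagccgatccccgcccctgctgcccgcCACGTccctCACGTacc
PDK3: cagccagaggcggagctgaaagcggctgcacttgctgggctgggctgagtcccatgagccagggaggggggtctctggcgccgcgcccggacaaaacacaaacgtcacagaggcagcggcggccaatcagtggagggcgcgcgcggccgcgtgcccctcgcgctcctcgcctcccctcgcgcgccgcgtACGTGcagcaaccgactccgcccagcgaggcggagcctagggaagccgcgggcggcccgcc
PDK2: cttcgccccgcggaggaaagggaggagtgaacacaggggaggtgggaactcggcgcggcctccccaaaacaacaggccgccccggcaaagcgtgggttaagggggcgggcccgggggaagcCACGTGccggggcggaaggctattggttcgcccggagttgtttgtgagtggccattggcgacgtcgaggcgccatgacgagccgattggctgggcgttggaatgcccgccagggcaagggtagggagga
PDK4: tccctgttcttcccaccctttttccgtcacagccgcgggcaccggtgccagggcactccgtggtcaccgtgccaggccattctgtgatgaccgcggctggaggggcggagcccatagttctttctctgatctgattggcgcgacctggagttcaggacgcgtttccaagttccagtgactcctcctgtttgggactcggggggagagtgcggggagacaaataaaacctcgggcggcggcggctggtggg
For PDK1 and PDK2 the window shown is the one that held a match, so a match there does not set the kinases apart. Over all windows searched, both kinases that fell had a window with a match, and so did PDK2, which was not called. Whether a match bears on the fall of a transcript was not tested. DLAT, PDHB and PDP2, whose transcripts also did not pass, each had a match in their windows.

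The make-up of the kinase transcripts was compared within each library. With counts divided by the length of all exons merged, PDK1 made up 36.5%, 38.3% and 35.0% of the 4 kinases in vitamin C wells 1, 2 and 3, against 57.8%, 56.0% and 52.8% in control wells 1, 2 and 3. The groups did not overlap. The mean share was 36.6 ± 1.65% in vitamin C cells and 55.5 ± 2.50% in control cells (SD, n = 3 each), a difference of -18.9 percentage points (exact permutation test, two-sided, p = 0.1, which is the lowest value this design can give). PDK2 made up 33.1 ± 1.53% in vitamin C cells and 20.7 ± 2.62% in control cells, and PDK4 made up 14.7 ± 0.793% in vitamin C cells and 7.91 ± 0.620% in control cells. The share of PDK3 was 15.5 ± 1.05% in vitamin C cells and 15.9 ± 0.794% in control cells. A share is a part of a fixed whole, so the fall of PDK1 by itself raises the shares of the others.

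The shares depend on the length given to each gene, whereas the direction of the difference did not. GENCODE gives PDK3 exons of 17456 bases in all but a canonical transcript of 1741 bases. With canonical transcripts, an alternative added after the data were seen, PDK3 made up 58.3 ± 1.74% of the kinases in vitamin C cells and 60.9 ± 1.76% in control cells. PDK1 then made up 14.5 ± 1.17% in vitamin C cells and 22.4 ± 0.680% in control cells, a difference of -7.92 points. With the longest transcripts the difference for PDK1 was -18.1 points. The order of PDK1 and PDK3 in level thus cannot be read from these counts.

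**Figure D3:**
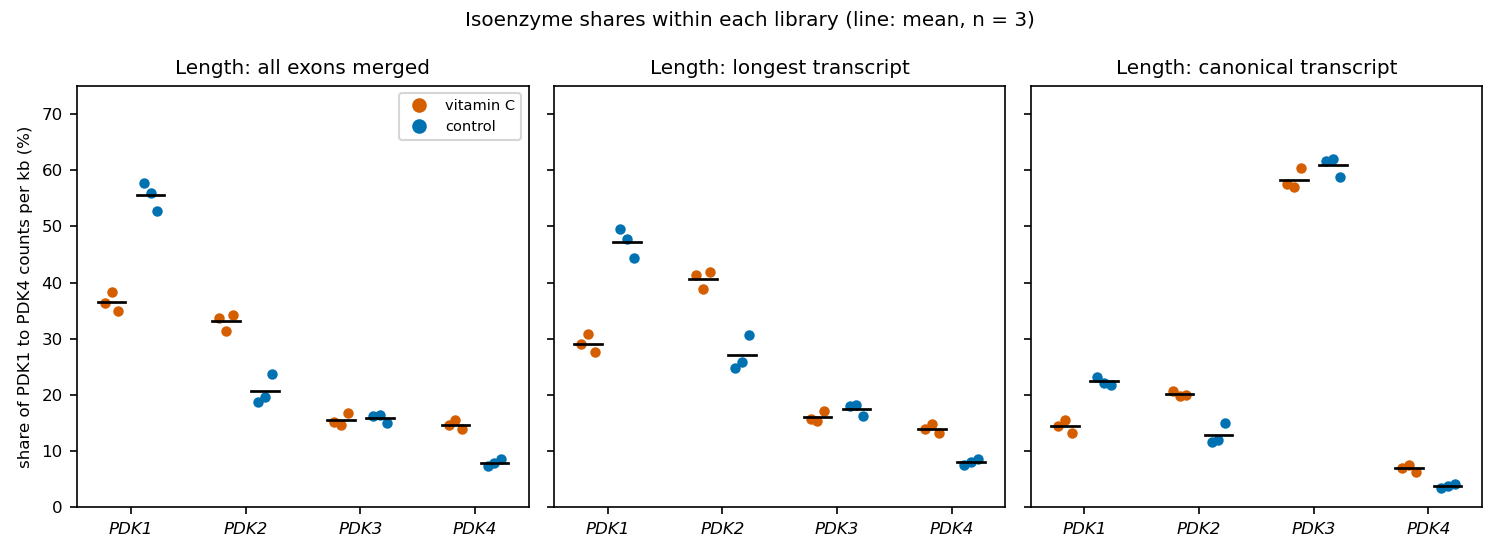
Share of each kinase in the counts per kilobase of PDK1 to PDK4, in percent, within each library and for 3 choices of gene length. Points are wells, with vitamin C left of control for each gene, and lines are means (n = 3 each). PDK1 is lower in vitamin C wells in each panel, and the share of PDK3 in control cells is 15.9% with all exons merged and 60.9% with canonical transcripts.

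The ratio of PDK1 counts to those of another gene in the same library does not depend on the scaling between libraries. For each of the other 9 genes, this ratio was lower in every vitamin C well than in every control well. Relative to PDHA1, the chain that the kinases phosphorylate, log2 PDK1 counts stood at -2.76, -3.16 and -3.01 in vitamin C wells 1, 2 and 3, against -1.91, -1.79 and -2.10 in control wells 1, 2 and 3. This was a difference of -1.04 on the log2 scale. Relative to the other kinases the differences were -1.29 for PDK2, -1.50 for PDK4 and -0.57 for PDK3. The ratio to PDK3 differed least of the 9, with -0.64 to -0.49 when single libraries were left out. Relative to the phosphatases they were -0.74 for PDP1 and -1.14 for PDP2. Each of the 9 ratios gave p = 0.1 (two-sided exact permutation test, 0.1 adjusted over the 9 ratios), the smallest p that the design allows. All 9 share the PDK1 counts, so they are not separate evidence of its fall.

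**Figure D4:**
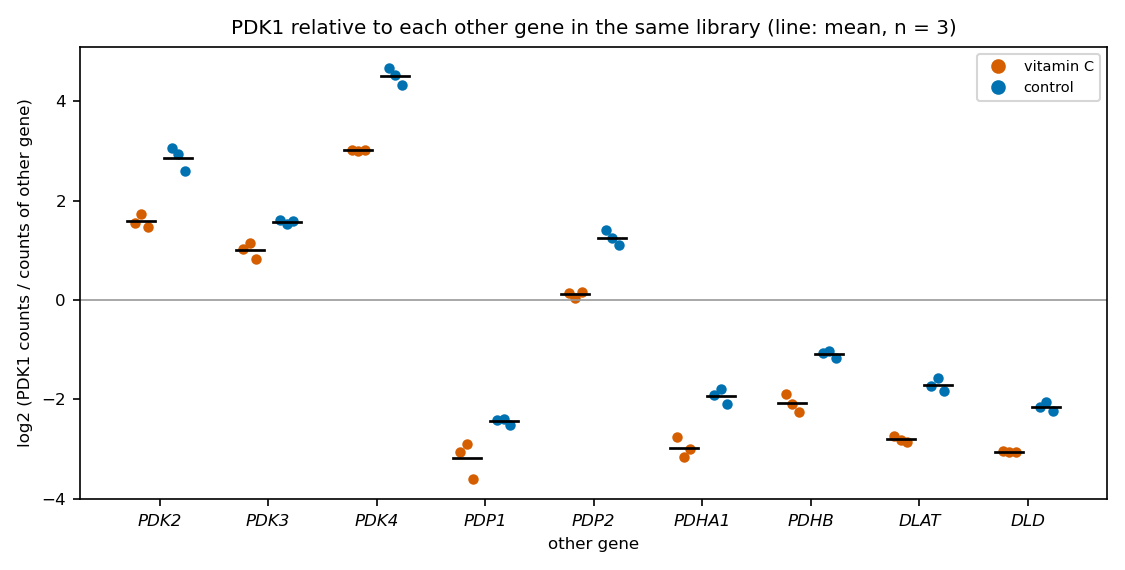
Log2 ratio of PDK1 counts to the counts of each other gene within the same library. Points are wells, with vitamin C left of control for each gene, and lines are means (n = 3 each). All vitamin C points lie below all control points for each of the 9 genes, with the smallest difference for PDK3 (-0.57) and the largest for PDK4 (-1.50).

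Neither phosphatase passed the threshold. PDP1, the phosphatase that calcium stimulates, lies on chromosome 8 (93857807 to 93926068, plus strand). It had 265, 230 and 352 CPM in vitamin C wells 1, 2 and 3, against 331, 341 and 321 CPM in control wells 1, 2 and 3. Vitamin C wells 1 and 2 lay below every control well and vitamin C well 3 above every control well, so that the SD was 62.9 CPM in vitamin C cells and 9.94 CPM in control cells. The log2 fold change was -0.23 (SE 0.13, edgeR adjusted p = 0.266). Without vitamin C 3 it was -0.42 and passed (adjusted p = 0.0102), and without vitamin C 2 it was -0.10 (adjusted p = 0.606). Unmapped read pairs made up 40.7%, 49.5% and 24.7% of vitamin C libraries 1, 2 and 3, against 24.2%, 34.4% and 32.9% of control libraries 1, 2 and 3, and their part in this spread was not tested. PDP2, the calcium-insensitive phosphatase, lies on chromosome 16 (66878589 to 66895754, plus strand). It had 29.1, 30.3 and 26.0 CPM in vitamin C wells 1, 2 and 3, against 23.3, 27.4 and 26.3 CPM in control wells 1, 2 and 3. Its groups overlapped, and its log2 fold change of 0.14 did not pass (SE 0.10, edgeR adjusted p = 0.369).

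The 4 enzyme subunits had log2 fold changes between -0.08 and 0.11, and none had an unadjusted p under 0.05 or was called by DESeq2. PDHA1, the E1 alpha chain on chromosome X (19343893 to 19361718, plus strand), had 216, 277 and 235 CPM in vitamin C wells 1, 2 and 3, against 232, 224 and 241 CPM in control wells 1, 2 and 3. The highest and the lowest of these values were both in vitamin C wells. Its log2 fold change was 0.06 (95% interval -0.14 to 0.26). PDHB, the E1 beta chain on chromosome 3 (58427630 to 58433857, minus strand), averaged 130 ± 10.8 CPM in vitamin C cells and 129 ± 3.30 CPM in control cells (SD, n = 3 each). Its log2 fold change was 0.01 (95% interval -0.16 to 0.18).

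DLAT, the E2 enzyme on chromosome 11 (112025408 to 112064404, plus strand), had 213, 219 and 210 CPM in vitamin C wells 1, 2 and 3, against 204, 193 and 199 CPM in control wells 1, 2 and 3. The groups did not overlap, but they were close, and the log2 fold change was 0.11 (SE 0.07, edgeR adjusted p = 0.341). DLD, the E3 enzyme on chromosome 7 (107891162 to 107931730, plus strand), had 263, 259 and 244 CPM in vitamin C wells 1, 2 and 3, against 276, 268 and 266 CPM in control wells 1, 2 and 3. All its vitamin C wells were slightly below the control wells. Its log2 fold change was -0.08 (SE 0.07, edgeR adjusted p = 0.492). The 95% intervals of the 4 subunits spanned folds of 0.852 to 1.20. Changes of that size cannot be told from none with these wells. Genes on the opposite strand share exon bases with PDK2 (SAMD14, 38.6% of PDK2 exon bases), PDHA1 (MAP3K15, 19.3%), DLAT (PIH1D2, 13.3%), PDHB (an RNA without a symbol, 7.63%) and DLD (LAMB1, 5.88%). Of these, LAMB1 had at least 2677 counts in every library and the others had at most 141. What part the shared bases have in the levels and in the kinase shares was not tested.

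Per kilobase of merged exons, the subunits and PDP1 stood well above the kinases. The mean level was 50.4 ± 11.2 CPM per kilobase for PDP1, 50.1 ± 1.93 for DLD, 49.0 ± 6.30 for PDHA1, 28.3 ± 0.622 for DLAT and 27.6 ± 2.29 for PDHB in vitamin C cells (SD, n = 3). In control cells these were 59.1 ± 1.77 for PDP1, 52.9 ± 1.11 for DLD, 46.9 ± 1.67 for PDHA1, 26.4 ± 0.710 for DLAT and 27.4 ± 0.700 for PDHB. DLAT and PDHB did not differ beyond their spread in either group, nor did PDP1, DLD and PDHA1 in vitamin C cells. This order depends on the lengths. Per kilobase of canonical transcript, PDHB stood at 78.6 to 92.8 CPM in vitamin C wells and 83.5 to 87.8 CPM in control wells, above DLAT with 54.2 to 56.5 CPM in vitamin C wells and 49.9 to 52.6 CPM in control wells. With merged exons again, PDP2 followed with 3.46 ± 0.269 CPM per kilobase in vitamin C cells and 3.12 ± 0.258 in control cells. The level of PDK1 on the same scale was 2.07 ± 0.0934 in vitamin C cells and 4.11 ± 0.290 in control cells, so that with these lengths PDK1 stood below PDP2 in vitamin C cells and above it in control cells. The remaining kinases lay between 0.831 and 1.88 CPM per kilobase in vitamin C cells and between 0.585 and 1.53 in control cells. With canonical lengths PDK3 was above PDP2 in every well.

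Around the complex, the shares of genes called were near those over all genes. Of 66 genes in lists of the pathway, 60 were tested, of which 2 fell (3.48% of all genes tested were called lower) and 3 rose (3.60% higher), with a median log2 fold change of -0.01. At an unadjusted p under 0.05, 11 of the 60 were lower and 6 higher, where 13.1% and 14.3% of all genes tested were. Neither of the 2 genes tested among other parts of the complex passed, nor did either have an unadjusted p under 0.05 or a call by DESeq2. PDHX, which tethers E3 to E2, averaged 90.8 ± 2.27 CPM in vitamin C cells and 95.0 ± 3.89 CPM in control cells, and PDPR, the regulatory subunit of the phosphatase, averaged 26.5 ± 0.992 CPM in vitamin C cells and 26.5 ± 2.21 CPM in control cells (SD, n = 3 each). PDHA2, the testis form of E1 alpha, had no count in any library.

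Of 5 genes for pyruvate entry into mitochondria, its carboxylation there and its exchange with lactate, 1 fell and 4 did not pass. Of all genes tested, 3.48% were called lower. LDHA, the lactate dehydrogenase chain that favours lactate production and a known HIF-1 target, had 1314, 1336 and 1293 CPM in vitamin C wells 1, 2 and 3, against 1700, 1799 and 1736 CPM in control wells 1, 2 and 3. The groups were well apart. The log2 fold change was -0.41 (SE 0.07, edgeR adjusted p = 0.0102), a call lost without control 2 (adjusted p = 0.0624). None of 8 genes tested for lipoic acid and thiamine supply passed. These include the thiamine transporter gene SLC19A2, with 35.1 ± 2.98 CPM in vitamin C cells and 43.3 ± 5.13 CPM in control cells (SD, n = 3 each). At an unadjusted p under 0.05, 2 of the 8 genes of that list were lower (13.1% of all genes tested were) and none was higher (14.3% were), and DESeq2 called none. SLC19A2 passed without vitamin C 3 (edgeR adjusted p = 0.0424) and without a filter on low counts (0.0284).

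Among 9 tested genes of the related oxo acid dehydrogenases and the glycine cleavage system, which use the same E3 enzyme, 1 rose and 8 did not pass. Over all genes tested, 3.60% were called higher. The gene that rose was AMT, a glycine cleavage enzyme, on 24 to 52 counts per library. AMT had 2.45 ± 0.399 CPM in vitamin C cells and 1.35 ± 0.147 CPM in control cells (SD, n = 3 each). It passed by edgeR (adjusted p = 0.0428) but not by DESeq2 (adjusted p = 0.0961), and leaving out any single library ended its call (adjusted p of 0.0563 to 0.139). None of 15 citric acid cycle genes passed by edgeR, with 3 lower and none higher at an unadjusted p under 0.05, where 13.1% and 14.3% of all genes tested were. DESeq2 called 1 lower (6.36% of all genes it tested were), SDHD, a subunit of succinate dehydrogenase named after its values were seen. SDHA, its catalytic subunit, averaged 165 ± 8.12 CPM in vitamin C cells and 173 ± 7.70 CPM in control cells, and MDH2, the mitochondrial malate dehydrogenase, averaged 122 ± 3.03 CPM in vitamin C cells and 111 ± 8.70 CPM in control cells (SD, n = 3 each).

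Of 11 genes that supply acetyl-CoA from other sources, ACADM, an enzyme of fatty acid oxidation, fell and 10 did not pass. Over all genes tested, 3.48% were called lower. ACADM had 56.3, 47.9 and 57.7 CPM in vitamin C wells 1, 2 and 3, against 71.2, 72.8 and 65.0 CPM in control wells 1, 2 and 3, with a log2 fold change of -0.37 (edgeR adjusted p = 0.0367). Its adjusted p was 0.125 and 0.126 without control 1 and control 2 and 0.0707 and 0.0800 without vitamin C 1 and vitamin C 2, which ended the call. Of 10 known regulators of the PDK genes, 2 rose and 8 did not pass, where 3.60% of all genes tested were called higher. HIF1A, the oxygen-regulated subunit of HIF-1, had 1297, 1406 and 1400 CPM in vitamin C wells 1, 2 and 3, against 783, 873 and 871 CPM in control wells 1, 2 and 3. Its log2 fold change was 0.70 (SE 0.08, edgeR adjusted p = 0.00156), so its transcript was higher where PDK1, PDK3 and LDHA transcripts were lower, and HIF-1 protein was not measured here. PPARG, a nuclear receptor of lipid metabolism, averaged 37.1 ± 3.19 CPM in vitamin C cells and 28.1 ± 0.626 CPM in control cells, with a log2 fold change of 0.40 (edgeR adjusted p = 0.0284). Leaving out any single library but vitamin C 3 ended the call of PPARG (adjusted p of 0.0542 to 0.108).

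**Figure D5:**
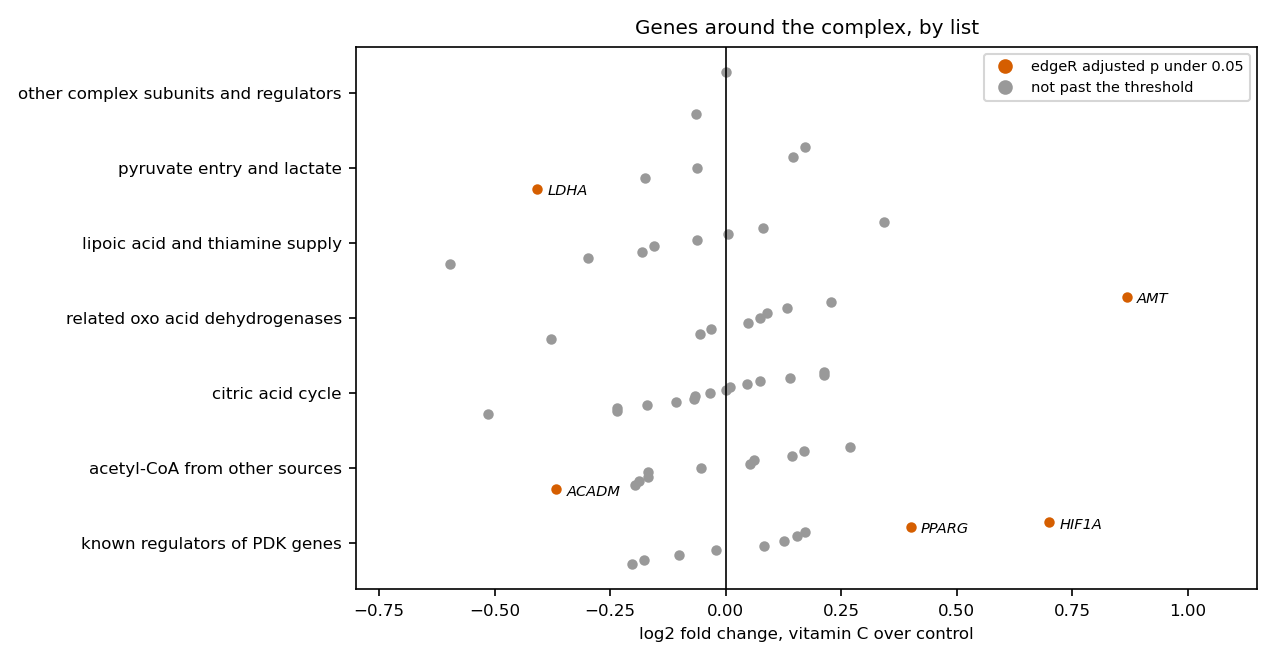
Log2 fold changes (vitamin C over control) of the 60 tested genes around the complex, by list, from the edgeR fit with 3 wells per group. Orange marks an adjusted p under 0.05. LDHA (-0.41) and ACADM (-0.37) lie left of 0 and HIF1A (0.70), PPARG (0.40) and AMT (0.87) right of it, and none of the 15 citric acid cycle genes is orange.

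The genes whose pattern over the 6 libraries lay nearest to that of PDK1 were OTULINL, P4HA1, POP1, FAM162A and BNIP3, of 9655 protein-coding genes that averaged 100 or more counts. Likeness was the root mean square difference of log2 CPM, each gene centred on its control mean, and it ran from 0.108 for OTULINL to 0.183 for BNIP3. OTULINL, a relative of the deubiquitinase OTULIN, averaged 11.2 ± 0.795 CPM in vitamin C cells and 21.8 ± 1.63 CPM in control cells (SD, n = 3 each). P4HA1, a collagen prolyl hydroxylase subunit, had 111, 113 and 115 CPM in vitamin C wells 1, 2 and 3, against 180, 221 and 204 CPM in control wells 1, 2 and 3. POP1, a subunit of RNase P and RNase MRP, and FAM162A, a mitochondrial protein known from hypoxia, had log2 fold changes of -0.84 and -0.81. That of BNIP3, a mitophagy receptor and known HIF-1 target, was -1.24 (SE 0.08, edgeR adjusted p = 3.44e-05). These genes were chosen for their likeness to PDK1, so their fall is a description.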

How the data were processed

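RNA-seq counts of 6 libraries were analysed, 3 from vitamin C wells and 3 from control wells, with groups and replicate numbers from the sample labels. The submitters' processing notes name CASAVA 1.4, Trim Galore, STAR and the hg38 build. What the authors deposited are unnormalized counts, 1 file per library, for each Ensembl gene identifier. Neither the versions of STAR and Ensembl nor the use of strand in counting are stated in the sources read here. The 4 summary lines of each file, which held 50.6% to 69.7% of read pairs, were left out. The combined table repeats these counts and was not used.

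Symbols, positions and exon lengths came from GENCODE 44, which held 93.2% of the identifiers, and promoter windows from RefSeq (GRCh38.p14). Genes were tested with edgeR 4.0.16 in R 4.3.3 (TMM, factors 0.972 to 1.02; filterByExpr with a minimum count of 10; glmQLFit and glmQLFTest). The alternatives used DESeq2 1.42.0, limma 3.58.1, other factors and filters, a replicate block, thinning to the smallest library and libraries left out. Intervals of 95% used the t distribution of that fit. Exact permutation tests used SciPy 1.17.1, with 0.5 added to counts in ratios. On simulated counts for this comparison over 15063 genes, edgeR recovered 85.0% of 1.5-fold and 98.2% of 2-fold changes, placed only in genes averaging 100 or more counts (so not those as low as PDK4), and 12 of its 199 calls were false. Within groups, pairs of libraries had a chi-square of 4.99 to 24.3 per degree of freedom, above sampling noise.

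The genes, the lists and the tests were chosen with earlier results of these data known. Named genes are all 10 members, in each list up to 4 called genes with the smallest p or the 2 most abundant where none was called, and the 5 genes nearest to PDK1. One gene that this rule names is not reported here.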

Additional observations from a re-analysis of the deposited data

How the results depend on the processing

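The fall of PDK1 passed under every alternative tried, while the call for PDK3 did not. Genes called lower among the 10 numbered 2, and 1 (PDK1) with upper-quartile factors, with thinning to the smallest library, and without control 1 and vitamin C 2 together, where PDK3 had an adjusted p of 0.158. With single libraries left out this count ran from 1 to 3 (PDP1 was the added gene without vitamin C 3), and those of pathway genes from 0 to 4 lower and 1 to 3 higher. All edgeR calls numbered 1080, against 388, 503 and 1900 without vitamin C 1, 2 and 3, and 128, 142 and 693 without control 1, 2 and 3. None of the 10 genes was called higher under any alternative. Without control 1 and vitamin C 2 together, 268 of all genes, 1 pathway gene lower and 1 higher were called. Without a filter on low counts, 2245 of all genes and 5 pathway genes lower were called, PDP1 among the 10 with an adjusted p of 0.0432. Upper-quartile factors made 64.6% of all calls higher in place of 50.8%, and DESeq2 40.6%, and the causes were not tested.

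The replicate number as a block gave 731 calls in place of 1080, 1 of the 10 genes lower (PDK3 had an adjusted p of 0.0733) and 1 pathway gene lower. Libraries with the same number did not deviate together (correlations over genes of -0.016, -0.0556 and -0.0452), so the numbers were not taken as pairs. PDK4 had at most 71 counts in a library, which limits its precision.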
